A study of Mus musculus with 8 samples.

Results

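The 5 cystatin genes Cst3, Cst8, Cst9, Cst12 and Cst13 were followed in whole mouse testes by taking every probe set that carries 1 of those symbols and its intensity on each array. Of the 5 genes, 4 had a probe set, 1 each, among 18194 genes represented on the array. Cst8, the gene of cystatin-related epididymal spermatogenic protein, had none under its symbol and is not analysed here. The genes were picked with their levels in all 3 comparisons of the groups known, so these levels are described and not tested.

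RNA came from testes of male mice at postnatal day 28, of a mixed background of C57BL6/6J and 129, hybridized to 8 arrays of 45101 probe sets. All mice were Dmrt1 flox/flox, and Dmrt1 encodes a transcription factor of Sertoli and germ cells. The Sf1-Cre group (n = 4) also carried Cre driven by the promoter of Nr5a1, the gene of the nuclear receptor SF1, and the Dhh-Cre group (n = 2) carried Cre driven by the promoter of Dhh, the gene of desert hedgehog. The control group (n = 2) carried the floxed alleles and no Cre. The submitters call both promoters specific to Sertoli cells and the arrays of a group biological replicates. Whether the replicates came from separate litters is not stated, so every error given here measures the spread between these arrays.

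Cystatins are inhibitors of papain-like cysteine proteases such as the lysosomal cathepsins. Cst3 encodes cystatin C, a secreted inhibitor made by most tissues, whereas the other 4 genes belong to a group of cystatin-like genes of the mouse reproductive tract whose products largely lack the residues by which cystatin C blocks papain-like proteases. Cst9 encodes testatin, first described in pre-Sertoli cells of the mouse fetal gonad, and Cst13, also named Cymg1, is known from mouse testicular germ cells. Sertoli cells are the somatic cells that nurse germ cells in the seminiferous tubule, and spermatids are the haploid germ cells present there at this age.

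All 5 genes lie in 1 cluster on mouse chromosome 2 in RefSeq's annotation of GRCm38.p6, in the order Cst12, Cst8, Cst13, Cst9 and Cst3. The promoter sequences of the 4 measured genes are shown because these neighbours had unlike levels across the groups. Each sequence is RefSeq's, 300 bases long, and runs 5′ to 3′ along the gene's own strand from 250 bases before the annotated start to 50 bases after it. Cst3 lies on the minus strand at chr2:148875463-148875762. The other 3 lie on the plus strand, Cst9 at chr2:148834897-148835196, Cst12 at chr2:148789115-148789414 and Cst13 at chr2:148819849-148820148. Capitals mark the GC box GGGCGG in Cst3 and, in Cst13, the match TGACCTT, which is the reverse complement of the Nr5a1-type element AAGGTCA.
Cst3: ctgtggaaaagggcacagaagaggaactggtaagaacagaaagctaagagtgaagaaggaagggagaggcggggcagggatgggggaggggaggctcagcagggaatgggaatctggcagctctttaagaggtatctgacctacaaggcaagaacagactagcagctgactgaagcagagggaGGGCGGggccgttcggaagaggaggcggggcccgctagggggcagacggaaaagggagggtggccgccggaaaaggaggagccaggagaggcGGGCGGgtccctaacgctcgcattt
Cst9: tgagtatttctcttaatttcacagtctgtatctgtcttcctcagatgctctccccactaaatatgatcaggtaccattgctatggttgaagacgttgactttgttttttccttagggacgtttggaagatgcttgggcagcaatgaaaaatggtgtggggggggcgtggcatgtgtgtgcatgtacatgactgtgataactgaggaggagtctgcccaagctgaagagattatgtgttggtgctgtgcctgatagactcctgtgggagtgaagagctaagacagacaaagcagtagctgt
Cst12: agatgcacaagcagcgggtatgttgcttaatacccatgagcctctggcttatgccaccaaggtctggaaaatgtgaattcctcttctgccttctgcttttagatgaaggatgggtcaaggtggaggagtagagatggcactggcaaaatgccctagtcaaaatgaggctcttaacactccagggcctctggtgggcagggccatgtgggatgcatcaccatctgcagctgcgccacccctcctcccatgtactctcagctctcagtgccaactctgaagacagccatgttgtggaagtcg
Cst13: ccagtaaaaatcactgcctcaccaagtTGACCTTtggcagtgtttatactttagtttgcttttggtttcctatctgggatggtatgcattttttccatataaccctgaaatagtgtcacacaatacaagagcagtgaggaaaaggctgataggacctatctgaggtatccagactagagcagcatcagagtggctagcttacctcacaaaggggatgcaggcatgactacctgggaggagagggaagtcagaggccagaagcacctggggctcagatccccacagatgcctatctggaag

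The Cst3 promoter was the richest of the 4 in GC, at 60.3% with 13 CpG dinucleotides, against 47.3% with 0 in Cst13, 46% with 3 in Cst9 and 52.7% with 3 in Cst12. Over 32851 RefSeq promoters of this length the median was 52.7% GC and 7 CpG. The GC box was found in Cst3 alone, starting at position -67 and again at position 26 counted from the first transcribed base as 1, and 35.7% of all promoters hold it on either strand. The element AAGGTCA was found only in Cst13, at position -223, and 4.72% of all promoters hold it. The core ACANTGT of sites bound by DM domain factors such as DMRT1 (7.54% of promoters) and the cAMP response element TGACGTCA (1.79%) had 0 matches in the 4 windows. These 4 motifs were kept from a wider search after the matches had been seen, they do not overlap one another in these windows, and a match is only a run of letters.

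The deposited intensities were compared on the log2 scale, with an intensity of 16, or log2 4, taken as the floor of measurement. The median intensity of the arrays ran from 15.2 to 15.9 in the mutants and from 13.7 to 14.1 in the controls, and 47.6% to 49.9% of probe sets reached the floor. Pearson's r over the probe sets of 2 arrays (probe sets are no independent replicates) was 0.98 to 0.994 within groups and 0.804 to 0.887 between either mutant group and the controls. Dmrt1 itself had intensities of 137, 237, 198 and 185 in the arrays labelled Sf1-Cre and of 1377 and 979 in those labelled Dhh-Cre, against 361 and 433 in the controls. As deposited, Dmrt1 was thus higher in the Dhh-Cre arrays than in the controls, though their label names a Dmrt1 deletion in Sertoli cells. Whole testis also holds germ cells, so this probe set cannot check the label. Every direction that involves these arrays rests on the label. Where the probe set lies relative to the deleted part of Dmrt1 is not stated in these sources.

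Against the controls the scale of the arrays matters, and 2 other scalings were set beside the deposited one. Centring each array on the median level of 13 housekeeping genes took 1.70 from each log2 difference of Sf1-Cre and 1.69 from each of Dhh-Cre against control, and made the median of all tested genes -1.36 and -1.16 in place of 0.34 and 0.54. Centring on the median shift of the same genes, each gene first centred over the arrays, took 0.864 and 0.862 and made those medians -0.53 and -0.33. This second scaling was added after the data were seen. Neither scaling moved the comparison of the mutant groups by more than 0.00208. The 13 housekeeping genes themselves had median differences from control of 0.78 in Sf1-Cre and 0.76 in Dhh-Cre as deposited. Under level centring these medians were -0.92 and -0.93, with 4 and 5 of the 13 genes above 0. Under shift centring they were -0.08 and -0.10. Level centring thus took more from each difference than its own genes had moved at their median. Whole testis was extracted, so fewer cells of a type and less RNA per cell cannot be told apart in any value, and no RNA can be assigned to a cell type.

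Cst3 was higher in both mutant groups. Its intensity was 6970, 7750, 7590 and 7747 in the Sf1-Cre arrays and 7680 and 7920 in the Dhh-Cre arrays, against 2560 and 2740 in the controls. Every mutant array lay above both controls, while the 2 mutant groups overlapped. The log2 means were 12.87 ± 0.07 (SD, n = 4) in Sf1-Cre, 12.93 ± 0.03 (SD, n = 2) in Dhh-Cre and 11.37 ± 0.07 (SD, n = 2) in control. The differences from control were 1.50 ± 0.11 (SE) in Sf1-Cre, which is 2.83-fold, and 1.56 ± 0.13 (SE) in Dhh-Cre, which is 2.94-fold, on the scale as deposited. Under housekeeping shift centring they were 0.64 and 0.70, and under housekeeping level centring the direction turned, to -0.19 and -0.14.

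Cst12, listed by RefSeq also as CRES3, was higher in both mutant groups by less. Intensities were 8335, 8934, 9039 and 7903 in Sf1-Cre and 9712 and 9053 in Dhh-Cre, against 5893 and 4428 in the controls. All mutant arrays exceeded both controls, and both Dhh-Cre arrays lay above all 4 Sf1-Cre arrays, the lower of them only just. The log2 means were 13.06 ± 0.09 (SD, n = 4) in Sf1-Cre, 13.19 ± 0.07 (SD, n = 2) in Dhh-Cre and 12.32 ± 0.29 (SD, n = 2) in control, and the controls were the group with the widest spread. The differences from control were 0.74 ± 0.15 (SE), or 1.67-fold, in Sf1-Cre and 0.88 ± 0.17 (SE), or 1.84-fold, in Dhh-Cre, and they were -0.12 and 0.01 under housekeeping shift centring and turned to -0.96 and -0.82 under level centring. The mutant groups differed by -0.13 ± 0.15 (SE), less than the error.

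Cst9, the testatin gene, was lower in Sf1-Cre than in either other group. Its intensity was 2070, 1870, 1711 and 1274 in the Sf1-Cre arrays and 4240 and 5079 in the Dhh-Cre arrays, against 3930 and 3710 in the controls. The Sf1-Cre arrays all lay below both controls, and the Dhh-Cre arrays lay above both. The log2 means were 10.73 ± 0.30 (SD, n = 4) in Sf1-Cre, 12.18 ± 0.18 (SD, n = 2) in Dhh-Cre and 11.90 ± 0.06 (SD, n = 2) in control.

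Cst9 was 2.24-fold lower in Sf1-Cre than in control (log2 difference -1.16 ± 0.20 SE) and 2.72-fold lower in Sf1-Cre than in Dhh-Cre (-1.45 ± 0.20 SE). Between Dhh-Cre and control the difference was 0.28 ± 0.23 (SE), or 1.22-fold, about the size of its error, and it turned to -0.58 under housekeeping shift centring and -1.41 under level centring. Under these 2 scalings Cst9 was lower in Sf1-Cre than in control by more, with -2.03 and -2.86, and the difference between the mutant groups was -1.45 under both. Leaving out any 1 array gave -1.26 to -1.02 for Sf1-Cre against control and -1.58 to -1.31 for Sf1-Cre against Dhh-Cre.

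Cst13, the germ cell cystatin, had its signal in the controls. Intensities were 12.0, 9.03, 10.1 and 9.41 in Sf1-Cre and 7.87 and 16.8 in Dhh-Cre, against 1607 and 1479 in the controls. Of the 6 mutant arrays only Dhh-Cre replicate 2 reached the floor, just above it. With each mutant array under the floor set to it, Cst13 was at least 96.3-fold lower in Sf1-Cre and at least 94.0-fold lower in Dhh-Cre than in control, or log2 differences of -6.59 and -6.55. As deposited the log2 means were 3.33 ± 0.18 (SD, n = 4) in Sf1-Cre, 3.52 ± 0.78 (SD, n = 2) in Dhh-Cre and 10.59 ± 0.08 (SD, n = 2) in control. The mutant means lie under the floor and are no measured levels. No fold is given between the mutant groups, which overlapped under the floor.

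**Figure D1:**
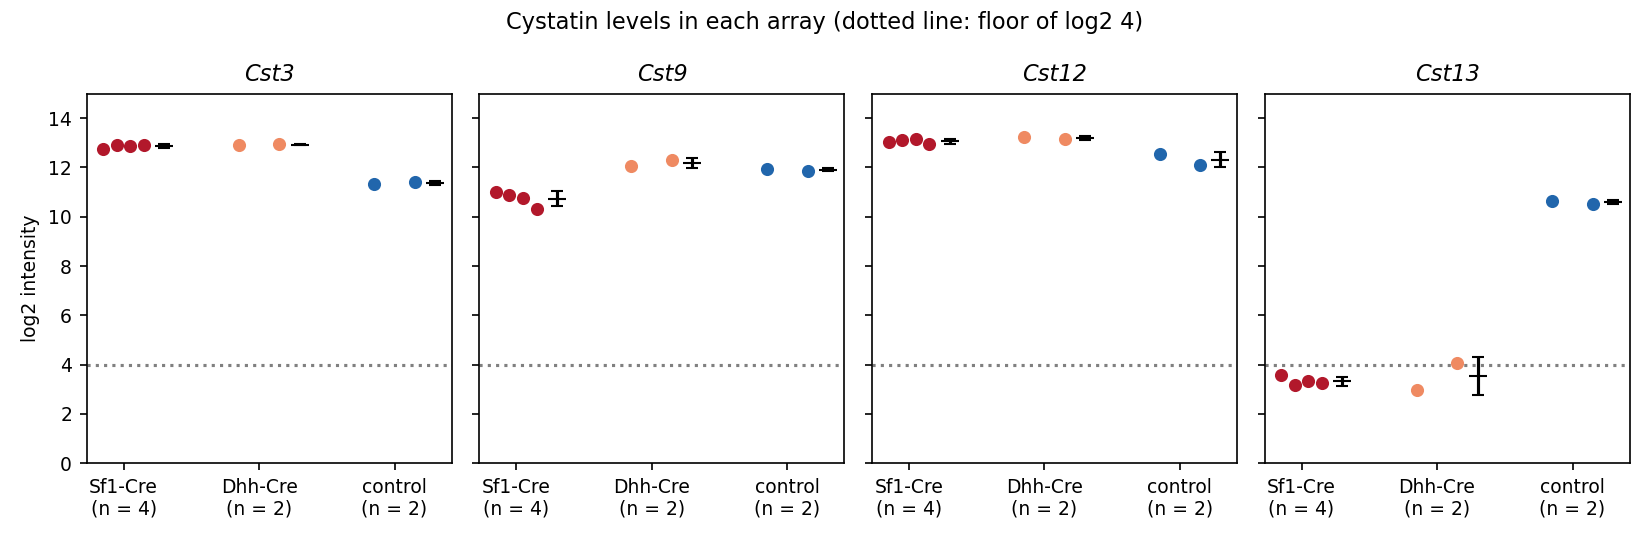
Log2 intensity of Cst3, Cst9, Cst12 and Cst13 in each array, with 1 panel a gene, points for arrays of Sf1-Cre (n = 4), Dhh-Cre (n = 2) and control (n = 2), a bar for the mean ± SD of a group and a dotted line at the floor of log2 4. Cst3 and Cst12 sit higher in all mutant arrays than in the controls as deposited (both turn under housekeeping level centring, and Cst12 in Sf1-Cre also under shift centring), Cst9 as deposited sits below control in Sf1-Cre and above it in Dhh-Cre (the second turns under both housekeeping scalings), and Cst13 lies near or under the floor in all 6 mutant arrays.

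Counted by arrays that do not overlap, 2 of the 4 genes (Cst3 and Cst12) were above control in Sf1-Cre and 2 (Cst9 and Cst13) below, while in Dhh-Cre 3 (Cst3, Cst9 and Cst12) were above and 1 (Cst13) below. Of the 13802 genes tested, 79.8% differed by limma at an adjusted p under 0.05 in Sf1-Cre and 79.6% in Dhh-Cre, and 50% had every Sf1-Cre array above both controls and 36% had every one below. For Dhh-Cre the shares were 56% and 35.1%. Between the mutant groups, Cst9 and Cst12 had every Sf1-Cre array below both Dhh-Cre arrays, as did 23.2% of tested genes, while 24.5% had every one above. The genes were chosen on these same contrasts, so nothing is read from the counts. The 2 comparisons with control share the same 2 control arrays.

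Within groups the genes varied unequally. The SD within groups, pooled over the 3 groups, was 0.07 for Cst3, 0.15 for Cst12, 0.25 for Cst9 and 0.38 for Cst13 on the log2 scale, the last mostly from values under the floor. The order of the group means was Dhh-Cre, Sf1-Cre, control for both Cst3 and Cst12, where the first pair did not differ beyond its error. For Cst9 it was Dhh-Cre, control, Sf1-Cre, where Dhh-Cre and control were within little more than 1 standard error. For Cst13 the controls came first and the mutants could not be ordered.

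**Figure D2:**
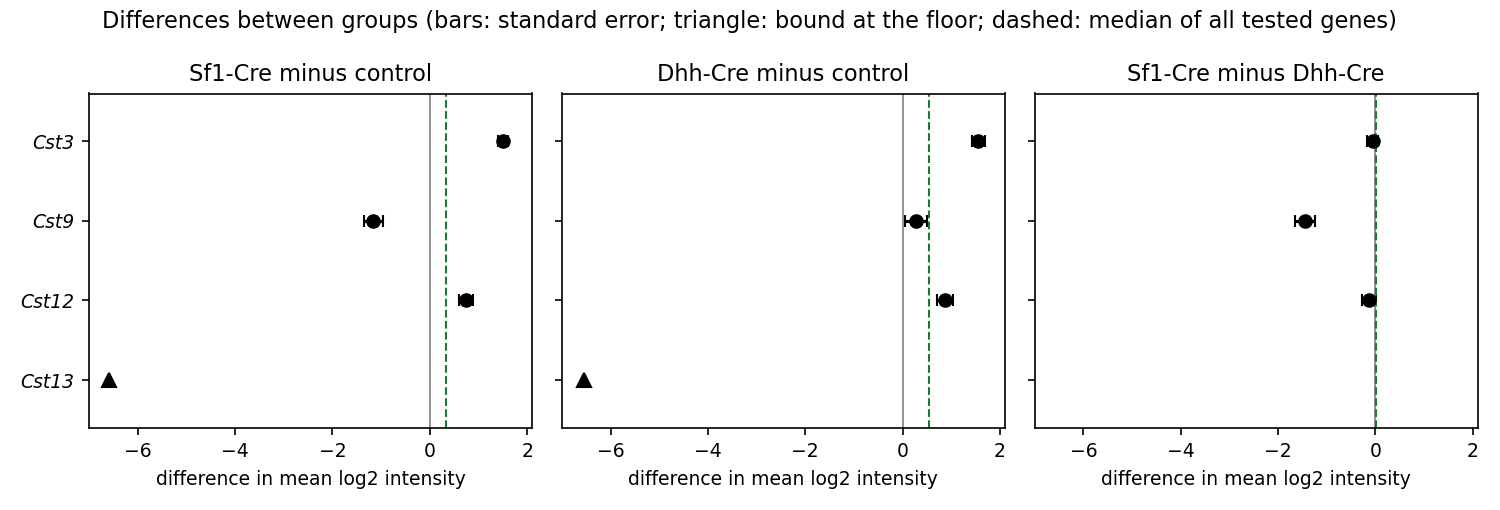
Difference in mean log2 intensity of each gene in Sf1-Cre minus control, Dhh-Cre minus control and Sf1-Cre minus Dhh-Cre, with the standard error as a bar, a triangle without one where 1 group lies under the floor and the value is a bound, and the median of all tested genes as a dashed line (Cst13 has no value between the mutant groups). Cst13 lies far below 0 against control in both mutant groups, Cst9 lies below 0 in Sf1-Cre against control and against Dhh-Cre, and Cst3 and Cst12 lie above 0 against control, a direction that turns under housekeeping level centring and, for Cst12 in Sf1-Cre, also under shift centring.

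Along the chromosome 2 cluster the array measures 3 more genes. Cst11, which like the others has reproductive tract expression in mice, stayed under the floor on all 8 arrays and was not tested. Cstdc1, which RefSeq also names Cst14 and places beside Cst12, had log2 levels of 10.36, 9.91, 9.65 and 9.19 in Sf1-Cre and of 11.77 and 11.77 in Dhh-Cre, against 10.08 and 9.44 in control. Unlike the 4 cystatins described so far, Cstdc1 was tested. It fell by 1.99 ± 0.32 (SE) in Sf1-Cre relative to Dhh-Cre (limma, Benjamini-Hochberg adjusted p = 0.00502), every Sf1-Cre array lying below both Dhh-Cre arrays, with adjusted p between 0.00206 and 0.0452 in 18 of 18 alternatives.

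Against control, Cstdc1 rose in Dhh-Cre by 2.01 ± 0.37 (SE, limma adjusted p = 0.00125), 4.03-fold, though by only 1.15 under housekeeping shift centring (adjusted p = 0.0282) and at 0.32 under level centring (adjusted p = 0.522). In Sf1-Cre its difference from control was 0.02 ± 0.32 (SE, limma adjusted p = 0.964), and it turned to -0.85 (adjusted p = 0.0493) and -1.68 (adjusted p = 0.00268) under shift and level centring. Cstdc2, placed between Cst9 and Cst3, rose in both mutant groups. Its log2 levels were 11.27, 11.39, 11.42 and 11.48 in Sf1-Cre and 10.42 and 11.28 in Dhh-Cre, against 7.95 and 8.56 in control. All mutant arrays were above both controls. The increase was 8.77-fold in Sf1-Cre (limma adjusted p = 1.77e-05) and 6.02-fold in Dhh-Cre (limma adjusted p = 0.000109), and it passed under level centring too, at log2 differences of 1.44 and 0.90.

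**Figure D3:**
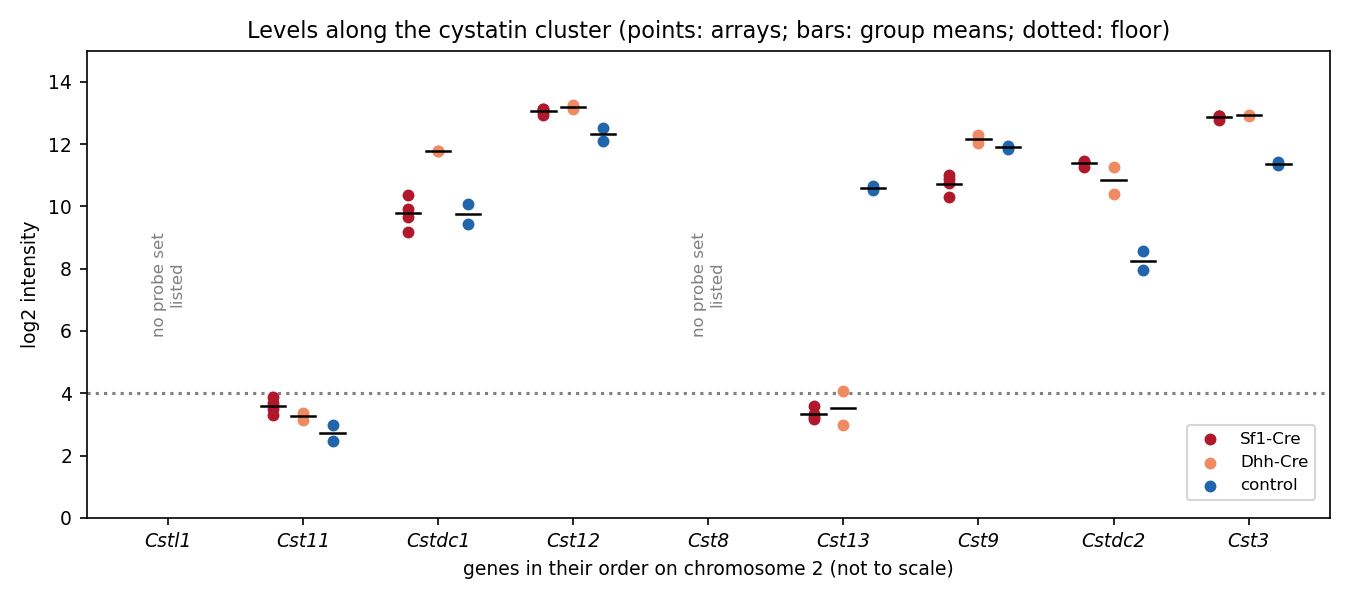
Log2 intensity of the genes of the chromosome 2 cystatin cluster in their order on the chromosome (distances not to scale), with points for the arrays of Sf1-Cre, Dhh-Cre and control, bars for group means and a dotted line at the floor. Neighbours differ in pattern: Cst13 lies near or under the floor in the mutants, Cst9 and Cstdc1 lie lower in Sf1-Cre than in Dhh-Cre, and Cstdc2 lies higher in both mutant groups than in control; levels are to be compared within a gene only.

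Of the other members of the cystatin superfamily, 15 had a probe set and 8 reached the floor on at least 2 arrays and were tested; the list was drawn up with earlier results of these data known. Ahsg and Fetub passed the filter only through the mutant arrays where they are high, and Stfa2l1 and Kng1 reached the floor on no Dhh-Cre array. Of the 6 genes that reached the floor in both groups compared, 3 rose and 2 fell in Sf1-Cre against control, where 45% and 32.6% of tested genes of that kind did. Of the 4 such genes in Dhh-Cre all rose, where 50.1% rose and 26.9% fell. Over all 8, whose counts the filter partly sets, 5 rose and 2 fell in Sf1-Cre and 6 rose and 2 fell in Dhh-Cre. The median log2 differences were 1.62 and 2.14 (1.86 in Dhh-Cre with values under the floor set to it), against 0.34 and 0.54 over all tested genes, of which 46.6% rose and 33.2% fell in Sf1-Cre and 49.1% rose and 30.5% fell in Dhh-Cre. Under housekeeping shift centring 5 rose and 3 fell in Sf1-Cre and 6 rose and 2 fell in Dhh-Cre, and under level centring 3 rose and 3 fell, and 3 rose and 2 fell, with the Sf1-Cre median at -0.07.

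Cst6 encodes cystatin M/E, a secreted inhibitor of legumain and cathepsins. It had log2 levels of 6.00, 6.13, 6.37 and 5.84 in Sf1-Cre and 6.63 and 6.96 in Dhh-Cre, against 4.34 and 4.72 in control. It was 2.94-fold higher in Sf1-Cre (limma adjusted p = 0.000177) and 4.81-fold higher in Dhh-Cre (limma adjusted p = 5.3e-05), and the log2 differences of 1.55 and 2.27 were -0.14 and 0.57 under level centring (adjusted p = 0.614 and 0.103). Cstb, the gene of the intracellular inhibitor cystatin B, was 3.23-fold higher in Sf1-Cre (limma adjusted p = 9.78e-06) and 3.27-fold higher in Dhh-Cre (limma adjusted p = 2.26e-05), as deposited. Its level-centred differences were -0.0055 and 0.017, its shift-centred ones 0.83 and 0.85, and a second, dimmer Cstb probe set gave 3.25 and 3.14 as deposited, so its probe sets disagree in size.

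Ahsg and Fetub, the genes of the plasma cystatins fetuin-A and fetuin-B, lay under the floor in both controls and were at least 7.02-fold and at least 5.09-fold higher in Sf1-Cre, and at least 6.55-fold and at least 2.81-fold higher in Dhh-Cre. A gene low in control enters the test only if it is high elsewhere, so these increases carry no weight as counts. Kng1, the gene of kininogen, the precursor of bradykinin, had intensities of 17.3, 15.5, 13.8 and 13.5 in Sf1-Cre and 4.44 and 5.96 in Dhh-Cre, against 113 and 134 in control. It fell at least 7.53-fold in Sf1-Cre and at least 7.68-fold in Dhh-Cre (limma adjusted p = 3.36e-06 in Sf1-Cre and 2.15e-06 in Dhh-Cre). Stfa2l1, a stefin A gene, fell at least 3.88-fold in Sf1-Cre and at least 5.36-fold in Dhh-Cre (limma adjusted p = 0.0166 and 0.00949), although Sf1-Cre replicate 1 stood at a log2 level of 5.86, against 2.02 to 2.52 in the other Sf1-Cre arrays, 2.08 and 2.34 in Dhh-Cre, and 6.03 and 6.82 in control. Without control replicate 2 the adjusted p was 0.109 in Sf1-Cre and 0.0594 in Dhh-Cre, and without control replicate 1 it was 0.0535 in Sf1-Cre.

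The cysteine proteases that cystatin C inhibits, and their relatives, rose in the mutants. Of 14 such genes on the array 11 were tested. All are called proteases here for short, although Tinag and Tinagl1 are counted among the relatives. Ctsk, Lgmn and Tinagl1 lay under the floor in both controls and passed the filter only through the mutant arrays. The other 8 all rose in Sf1-Cre and in Dhh-Cre, where 45% and 50.1% of the tested genes that reached the floor in both groups compared did. All 11 were higher than in control, against 46.6% and 49.1% of all tested genes, at median log2 differences of 2.93 in Sf1-Cre (2.71 with values under the floor set to it) and 3.18 in Dhh-Cre. All 11 passed under housekeeping shift centring, and 9 in Sf1-Cre and 8 in Dhh-Cre under level centring, every one of these higher. Ctsh, encoding cathepsin H, was 25.5-fold higher in Sf1-Cre and 14.6-fold higher in Dhh-Cre, and Ctsz, encoding cathepsin Z, was 22.5-fold and 16.2-fold higher (limma adjusted p of 9.43e-06 or less for each). Ctsb, encoding cathepsin B, was 16.7-fold and 11.2-fold higher, and Ctss, encoding cathepsin S of antigen-presenting cells, was 14.4-fold and 9.25-fold higher.

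Ctsl, the gene of cathepsin L, which Sertoli cells of rodents secrete, was 3.82-fold higher in Sf1-Cre and 4.10-fold higher in Dhh-Cre, and its level-centred differences of 0.24 and 0.34 did not pass (limma adjusted p = 0.191 and 0.120). These values are of its brightest probe set. A second, dimmer Ctsl probe set gave larger log2 differences as deposited, 3.30 in Sf1-Cre and 3.95 in Dhh-Cre. Summed over the 14 genes, protease intensity was 19522 to 25551 in Sf1-Cre and 17351 and 16033 in Dhh-Cre, against 2188 and 2224 in control. A macrophage list of 10 genes summed to 24009 to 26393 in Sf1-Cre and 15787 and 16356 in Dhh-Cre, against 1924 and 1819 in control. All 10 rose in both, where 46.6% of all tested genes rose in Sf1-Cre and 49.1% in Dhh-Cre. Ctss stands in both lists, and the macrophage list without it summed to 20799 to 22965 in Sf1-Cre and 13808 and 14205 in Dhh-Cre, against 1686 and 1610 in control. Leydig cell genes rose as well, 5 of 5 tested in Sf1-Cre and 4 of 5 in Dhh-Cre, and 0 fell. The part of macrophages or of any other cell type in the protease values was not tested.

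Between the mutant groups, 6 of the 11 proteases passed, where 24.6% of tested genes did (12.9% higher and 11.8% lower in Sf1-Cre). Ctsc, Ctsh, Ctsk and Ctss were higher in Sf1-Cre and Lgmn and Tinagl1 lower. That count was 2 without Dhh-Cre replicate 1, 3 without Dhh-Cre replicate 2 and 0 without the 3 arrays in which the epididymal gene Spink8 was high. Ctsc passed in 7 of 18 alternatives, Ctsk in 12 of 17 and the other 4 in 15 to 17 of 18. With the probe sets of each gene averaged, 7 proteases passed. Ctsb, which did not pass, had a difference of 0.57 with its brightest probe set. Its other probe sets that reached the floor gave 1.41 to 1.62. Of the other cystatins Cst6 and Cstdc1 were lower in Sf1-Cre, Cst6 in 10 of 18 alternatives and Cstdc1 in 18 of 18. Kng1 also passed, but both its means lie under the floor, and with values under log2 4 set to 4 the difference was 0.028 (limma adjusted p = 0.919), so no direction is read from it.

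**Figure D4:**
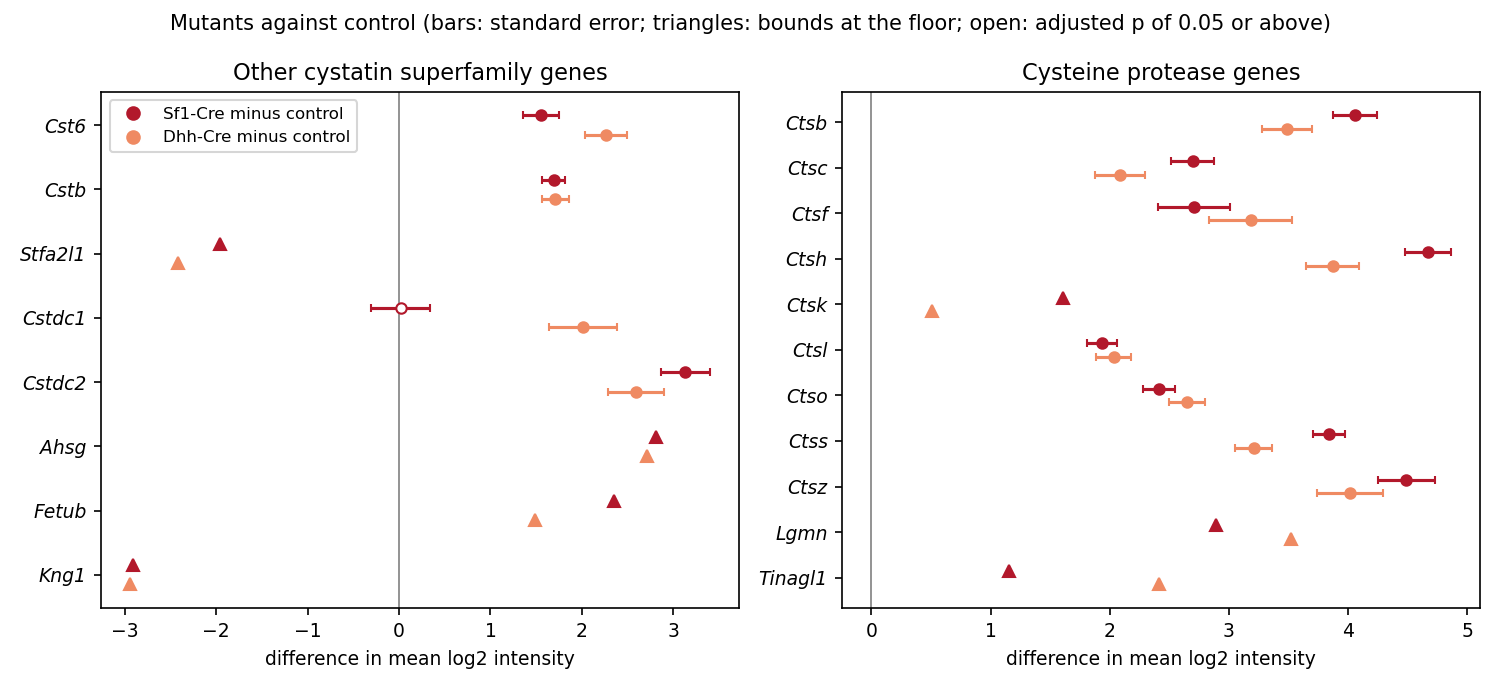
Difference in mean log2 intensity from control for the tested other cystatin superfamily genes and cysteine protease genes, in Sf1-Cre and Dhh-Cre, with standard errors as bars, triangles without bars for bounds where 1 group's mean lies under the floor, and open points for adjusted p of 0.05 or above. All 11 tested genes of the protease list, Tinagl1 being a relative, lie above 0 in both mutant groups. The cystatins lie on both sides, with Stfa2l1 and Kng1 below 0. Values are as deposited, and Cst6, Cstb and Cstdc1 turn below 0 in Sf1-Cre under housekeeping level centring, Cstdc1 also under shift centring.

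Cst13 and Cst9 were set beside marker lists of the cells they are known from. A list of 15 spermatid genes, among them Prm1 and Tnp1 of the chromatin packing proteins, summed to 1535 to 6433 in Sf1-Cre and 1460 and 12503 in Dhh-Cre, against 78888 and 73368 in control. All 15 fell in Sf1-Cre and 14 in Dhh-Cre, where 33.2% and 30.5% of all tested genes did. The median log2 differences were -5.13 and -6.43 (-6.39 in Dhh-Cre with values under the floor set to it), and medians under both housekeeping scalings lay further below 0. Of 10 spermatocyte genes 6 fell in Sf1-Cre and 5 in Dhh-Cre, shares to be set beside the same 33.2% and 30.5%, with 2 higher in Dhh-Cre and medians of -0.74 and -0.78. The part of lost spermatids in the Cst13 values was not tested. The highest spermatid sum among the mutants was in Dhh-Cre replicate 2, the mutant array with Cst13 at the floor. Prm1 (6533), Prm2 (2954) and Tnp1 (1616) gave most of that sum. Several other genes of the list were higher in Sf1-Cre replicate 1 than in Dhh-Cre replicate 2, such as Zpbp (1528 against 222) and Acrv1 (393 against 25.7).

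The Sertoli list does not hold Cst9. Of 14 tested genes 8 rose and 2 (Tsx and Rhox5) fell in Sf1-Cre against control, and 12 rose and 0 fell in Dhh-Cre, where all 14 differences were above 0 by limma, so that 0 were lower at an unadjusted p under 0.05 as well. Of all tested genes 46.6% rose and 33.2% fell in Sf1-Cre, and 49.1% rose and 30.5% fell in Dhh-Cre. Fshr and Sox8, 2 of the risen genes, passed the filter only through the mutant arrays, and without them 6 rose in Sf1-Cre and 10 in Dhh-Cre. The median log2 differences were 0.82 and 1.40 as deposited, -0.05 and 0.54 under housekeeping shift centring and -0.88 and -0.30 under level centring. Between the mutant groups 9 were lower in Sf1-Cre, where 11.8% of tested genes were, and 1, Ptgds, was higher, at a median of -0.85. The list summed to 22279 to 26969 in Sf1-Cre and 35417 and 35659 in Dhh-Cre, against 18890 and 19209 in control. The Sf1-Cre array with the lowest Cst9 intensity, replicate 4, also had the lowest Sertoli sum of its group, and replicate 1 was highest in both. Replicates 2 and 3 ran in opposite orders, with Cst9 at 1870 and 1711 and sums of 25539 and 26032. The sum is weighted to bright genes such as Clu, at 10352 in replicate 4.

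Of the 9 lower in Sf1-Cre, Tsx and Rhox5, both X-linked genes of mouse Sertoli cells, had the largest differences in the list. That of Tsx was -7.09 ± 0.26 (SE) on the log2 scale, and Rhox5, under the floor on all 4 Sf1-Cre arrays, was at least 22.3-fold lower. Sox9, the gene of a testis-determining transcription factor, had -1.96 ± 0.29 (SE, limma adjusted p = 0.00372). The Cst9 difference of -1.45 lay between those of Sox9 and Shbg, the gene of androgen-binding protein, -1.10. Against control the genes were unlike. As deposited, Sox9 (0.82) and Shbg (2.45) were higher in Sf1-Cre than in control, whereas Cst9 (-1.16), Tsx and Rhox5 were lower. When each array was centred on the median shift of the tested Sertoli genes, a choice made after seeing the data, the Cst9 difference was -0.54 between Sf1-Cre and Dhh-Cre, -1.86 between Sf1-Cre and control and -1.32 between Dhh-Cre and control. The part of Sertoli cell number in the Cst9 values was not tested.

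**Figure D5:**
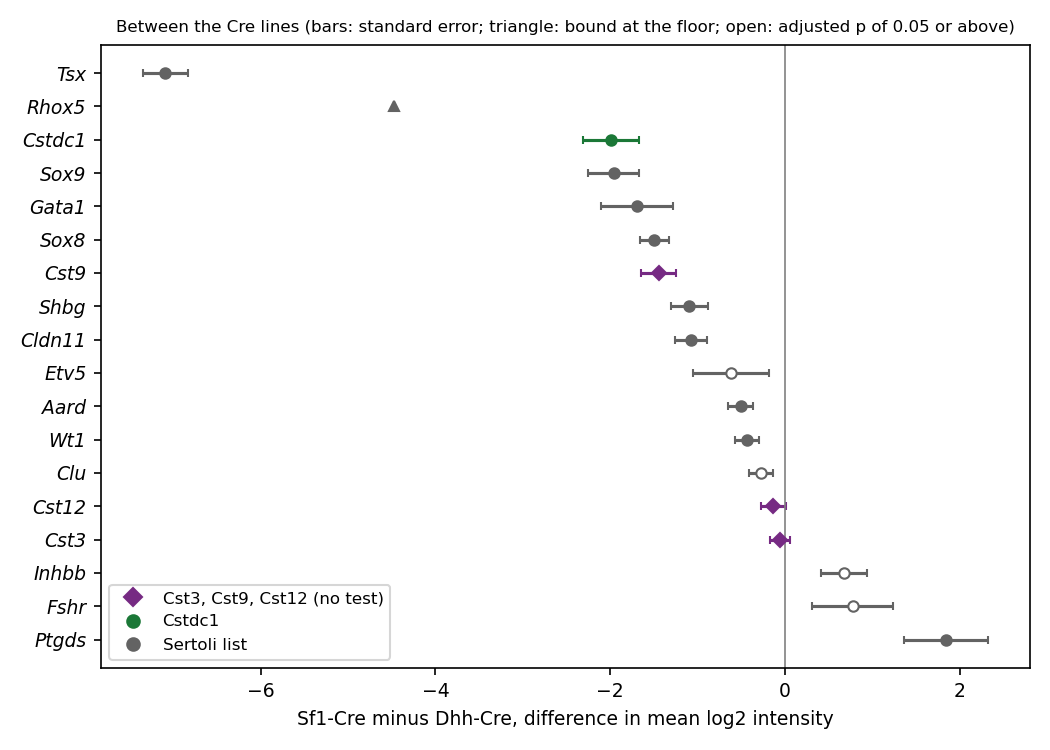
Difference in mean log2 intensity, Sf1-Cre minus Dhh-Cre, for the 14 tested genes of the Sertoli list (grey), Cstdc1 (green) and the cystatins Cst3, Cst9 and Cst12 (purple diamonds, no test), with standard errors as bars, a triangle for the bound of Rhox5 and open circles for adjusted p of 0.05 or above. Cst9 and Cstdc1 lie among the Sertoli genes that are lower in Sf1-Cre, while Cst3 and Cst12 lie near 0.

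Epididymal RNA was looked for because several cystatins are expressed there. Of 13 epididymal genes on the array 4 were tested, and their summed intensity was 4449, 138, 1532 and 187 in Sf1-Cre and 3289 and 113 in Dhh-Cre, against 212 and 100 in control. The sum was high in Sf1-Cre replicates 1 and 3 and Dhh-Cre replicate 1, the arrays with Spink8 at a log2 level of 10 or above. Spink8 alone gave most of it there, with intensities of 4250, 1435 and 3001. Adam7 was at 105, 13.2 and 192 in the same arrays, and in each group 10 of the 13 genes lay under the floor on every array. Without the 3 Spink8-high arrays the Cst9 differences were -1.31 in Sf1-Cre and 0.41 in Dhh-Cre against control and -1.72 between the mutant groups, where Dhh-Cre is 1 array. Those of Cst12 against control were 0.72 and 0.83.

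The genes whose levels over the 8 arrays ran closest to each cystatin were named by the smallest root mean square distance between gene-centred log2 profiles, among 12775 tested genes with established symbols. Since the groups differ widely, this likeness mostly restates the group means. For Cst3 the nearest were Gstm2, a glutathione transferase gene (0.0463), Nsfl1c (0.0483), Ssr3 (0.0524), Snx6 (0.0578) and Gnb1 (0.0643). For Cst12 they were Acp2, the gene of lysosomal acid phosphatase (0.0671), Etaa1 (0.0691), D5Ertd579e (0.0787), Plcg1 (0.0790) and Ctcf (0.0817). For Cst9 they were Simc1 (0.131), Slc13a2 (0.137), Slc39a6 (0.138), Prr15 (0.146) and Gen1 (0.159), and none of the listed Sertoli genes was among them. The Slc13a2 means in Sf1-Cre and control (log2 2.73 and 3.81) lie under the floor. For Cst13 they were Fam71a (0.0900), Clmn (0.169), Mgat4e (0.172), Calr3, a testis-expressed calreticulin gene (0.176), and Prss51 (0.182), each at a log2 mean above 9 in control and below 5 in Sf1-Cre, and these distances include mutant values under the floor.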

How the data were processed

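Total RNA of whole testes was labelled with biotin and hybridized to 1-colour oligonucleotide arrays, 1 per sample. The deposited values are intensity values on a linear scale, made with GCRMA, per the submitters' processing notes, with version and settings not given in the sources used here. Part of the values in 6 of the 8 columns were deposited rounded to 3 significant digits. From the deposited intensities log2 values were computed here. Probe sets were named through the platform annotation: 34958 of 45101 carry 1 symbol, 932 several and 9211 none listed, and 34754 matched RefSeq by Entrez identifier. Each gene was represented by its probe set with the highest mean, and 13802 of 18194 genes, those reaching log2 4 on at least 2 arrays, were tested. The test was limma's (version 3.58.1, run in R 4.3.3; package data.table, version 1.17.8). It estimated a mean for each of the 3 groups from all 8 arrays and a spread shared by the groups, with 5 degrees of freedom from the residuals and 2.73 from the prior. P-values are 2-sided and adjusted by Benjamini and Hochberg over all tested genes, with 0.05 as the threshold. The number of arrays limits the precision. Where arrays of the lower group lay under log2 4, each was set to 4 before the mean and the fold is a lower bound. The script was tested on simulated data.

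The cystatins and the gene lists were chosen with earlier results of these data known. Named genes are the cystatins, the tested genes of the lists of other cystatins and of cysteine proteases, the 5 nearest genes of each cystatin (provisional symbols passed over), and marker genes where a result turns on them. Alternatives were quantile normalization, centring on the median level of 13 housekeeping genes, which the middle gene sets, no filter, a filter at log2 6, values under log2 4 set to 4, averaging a gene's probe sets, a fit of 2 groups only, replicate number as a block, dropping each array in turn, and dropping the 3 arrays whose Spink8 level was at least log2 10; centring on the median shift of the housekeeping or Sertoli genes was added after seeing the data. The plots come from matplotlib 3.10.9 and pandas 2.3.3 under Python 3.11.15.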

Additional observations from a re-analysis of the deposited data

Results flagged for a closer look

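Cst9 lay below control in every Sf1-Cre array and above it in every Dhh-Cre array, as deposited (the second turned to -0.58 and -1.41 under the housekeeping scalings), with a log2 difference between the mutant groups of -1.45, and that difference was not tested. Cst9 was picked with these contrasts known, so the pattern is a description only. Its Dhh-Cre difference from control, 0.28 ± 0.23 (SE), was about the size of its error. By limma, Cstdc1 (-1.99), Tinagl1 (-1.26), Cst6 (-0.71) and Lgmn (-0.63) were lower in Sf1-Cre than in Dhh-Cre, and Ctsk (1.10), Ctsh (0.80), Ctss (0.63) and Ctsc (0.61) were higher, all as log2 differences with adjusted p under 0.05. Of all tested genes 24.6% passed in this comparison. Ctsc passed in 7 of 18 alternatives, Cst6 in 10 of 18, Ctsk in 12 of 17 and the others in 15 to 18 of 18.

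Within the 4 Sf1-Cre arrays, 1 array stood apart for Stfa2l1 (replicate 1, Dixon ratio 0.870) and 1 for Ctsh (replicate 4, Dixon ratio 0.917), past Dixon's critical ratio, which chance passes in about 1 of 20 groups. The ratio was taken for the 4 measured cystatins, the 8 tested other cystatins and the 11 tested proteases, so chance could give such passes. A probe set shared by Cstdc5 and Stfa1, 2 stefin A genes, and used in no comparison, had an intensity of 451 in Sf1-Cre replicate 1 and of 5.32 to 5.67 in the other Sf1-Cre arrays, 6.72 and 5.37 in Dhh-Cre, and 70.5 and 77.4 in the controls.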

How the results depend on the processing

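The members' differences kept their direction under quantile normalization, with values under log2 4 set to 4 and with the replicate block, and apart from Cst13 between the mutant groups, where both lie under the floor, when any 1 array or the Spink8-high arrays were left out. Housekeeping level centring turned Cst3 (-0.19), Cst12 (-0.96), Cst6 (-0.14), Cstb (-0.0055) and Cstdc1 (-1.68) in Sf1-Cre and Cst3 (-0.14), Cst9 (-1.41) and Cst12 (-0.82) in Dhh-Cre, took the other cystatins passing in Dhh-Cre to 5, and gave 2043 higher and 9424 lower genes in Sf1-Cre (6434 and 4586 as deposited) and 2014 and 8550 in Dhh-Cre (6781 and 4206). Housekeeping shift centring, added later, turned Cst12 (-0.12) and Cstdc1 (-0.85) in Sf1-Cre and Cst9 (-0.58) in Dhh-Cre, and gave 3759 higher and 6997 lower genes in Sf1-Cre and 4028 and 6111 in Dhh-Cre. Sertoli centring, also added later, turned Cst3 (-0.046), Cst9 (-1.32) and Cst12 (-0.73) in Dhh-Cre, and Cst3 (0.85), Cst12 (0.77) and Cst13 (0.71) between the mutant groups. Each of these scalings adds 1 constant per array, which by construction moves all genes alike.

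Between the mutant groups, leaving out 1 array gave 1139 to 3713 genes (3402 with all arrays; 1139 without Dhh-Cre replicate 1, 2066 without Dhh-Cre replicate 2) and 2 to 7 proteases, and ranges of -0.74 to 0.36 for Cst13, -0.067 to 0.027 for Cstb and -0.11 to 0.30 for Ahsg. For Cstdc1 in Sf1-Cre against control that range was -0.30 to 0.33. Without the Spink8-high arrays 714 genes, 1 other cystatin and 0 proteases passed between the mutant groups, Cstdc1 in Sf1-Cre was -0.21, and Stfa2l1 (-0.067) and Ahsg (-0.14) turned between the mutant groups, fewer arrays being compared. The mean of all probe sets turned Cstb between them (0.044).

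Whether the replicate numbers pair the arrays could not be settled. Deviations of same-numbered arrays correlated at 0.03 for control with Dhh-Cre, 0.02 and -0.14 for control with Sf1-Cre, and -0.19 and 0.38 for Dhh-Cre with Sf1-Cre. Different-numbered arrays of Dhh-Cre and Sf1-Cre gave -0.38 to 0.30. In a group of 2 arrays the deviations mirror each other, which fixes these values in pairs of opposite sign. With the replicate block 2 proteases passed between the mutant groups and Ahsg turned (-0.091). Ctsk had no value under the filter at log2 6. With 2 controls, and 2 Dhh-Cre arrays whose label the Dmrt1 signal cannot check, small differences cannot be settled, and levels under log2 4 have no order.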

Other observations

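The array that stood apart for the stefin A genes, Sf1-Cre replicate 1, was also high for 5 genes of neutrophils, which were chosen after that pattern was seen. S100a8, the gene of a calprotectin subunit, had an intensity of 1917 there and of 9.44 to 12.4 in the other Sf1-Cre arrays, 14.2 and 5.58 in Dhh-Cre, and 4.19 and 3.83 in control. S100a9, the gene of the partner subunit, had 4600 there, 18.6 to 29.8 in the other Sf1-Cre arrays, 21.8 and 12.2 in Dhh-Cre, and 8.63 and 10.9 in control. Ngp, the gene of neutrophilic granule protein, had 370 there and 3.72 to 4.00 in the other Sf1-Cre arrays, 4.72 and 3.64 in Dhh-Cre, and 3.85 and 4.21 in control. Ltf, the gene of lactoferrin, had 172 there and 5.14 to 13.2 in the other Sf1-Cre arrays, 24.3 and 4.45 in Dhh-Cre, and 6.59 and 5.75 in control. Camp, the gene of cathelicidin, was about as high in Dhh-Cre replicate 1 (102) as there (113), against 6.58 to 8.01 in the other Sf1-Cre arrays, 11.1 in Dhh-Cre replicate 2, and at most 8.28 in control. Stfa3, a stefin A gene that was not tested, had 37.1 there and under 5 on every other array. In the controls, Stfa2l1 (65.3 and 113) and the shared probe set of Cstdc5 and Stfa1 (70.5 and 77.4) had signal while these neutrophil genes lay under the floor of 16.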
